A study of Caenorhabditis elegans with 8 samples.

Results

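The loss of spr-5 on top of the loss of met-2 was examined in Caenorhabditis elegans larvae arrested by starvation in the first stage (L1) by setting the spr-5; met-2 double mutant beside the met-2 mutant. Both groups carried met-2 (n4256) on chromosome III, and the double mutant also carried spr-5 (by101) on chromosome I. The added allele is the difference in their stated genotypes, and other differences between the strains or their cultures cannot be told apart from it here. Each group had 2 libraries, each made from total RNA of 200 to 250 pooled whole larvae that hatched into buffer without food from parents grown on bacteria at 20 °C. The wild-type strain N2, also with 2 libraries, was the reference of every deposited comparison, and another mutant group, spr-5 (by101) alone, is quoted for reference. The labels do not state whether the libraries of a group came from separate cultures.

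The authors deposited, for each mutant, a comparison with N2, and values of single libraries were not used here, so no spread between replicates can be given. A transcript was included if its base mean, the mean of the scaled counts in the 4 libraries that the authors compared, was at least 50 in the double-mutant or the met-2 table and if both tables gave it a fold change. Of 50832 transcripts in the tables, 7425 met this rule, 6259 of them from genes annotated as protein-coding. The change with added spr-5 loss is the authors' log2 fold change of the double mutant against N2 minus that of met-2 against N2, so that N2 largely cancels. The tables were scaled separately, no test of this difference exists in them, and the changes below are descriptions. The standard error (SE) given with a change is the root of the summed squares of the authors' 2 standard errors. It counts the N2 libraries in both tables, and its median over the included transcripts was 1.27 on the log2 scale.

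SPR-5 is the worm counterpart of the demethylase LSD1, which removes methyl groups from lysine 4 of histone H3, a mark of transcribed genes. MET-2 resembles SETDB1 and adds methyl groups to lysine 9 of histone H3, a mark of repressed chromatin. Both act in the parental germ line, where they limit the transmission of active chromatin marks to the next generation. An L1 larva that hatches without food arrests its development, and its germ line then consists of the primordial germ cells alone, so that most of its RNA comes from muscle, pharynx, neurons, intestine and hypodermis. In bulk RNA a larger number of cells of a type and more RNA per cell cannot be told apart.

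The sums of the base means, which stand for the mean scaled depth of a library, were 4969238 in the authors' deposited double-mutant table and 4831475 in that of met-2. The totals of single libraries were not used here. The deposited fold changes have the form of values drawn towards 0 by a prior, and more so in met-2, where no standard error exceeded 0.91, than in the double mutant, where the largest was 1.37, from the authors' deposited tables. Base means offer a view without this limit. Since N2 is part of both comparisons, the ratio of the 2 base means of a transcript lies nearer to 1 than the ratio of the mutant levels does, apart from the scale of the tables. Base mean ratios below were centred on their median over the 6389 transcripts that reached a base mean of 50 in both tables. The N2 levels implied by the 2 tables differed by a median of -0.06 on the log2 scale over those transcripts, with quartiles of -0.10 and -0.02. Where the change was 2 or more the median was 0.31, with quartiles of 0.25 and 0.42. Where it was -2 or less the median was -0.18, with quartiles of -0.32 and -0.11. The implied N2 levels thus differed more for the transcripts that changed most, and for B0507.6 the difference was 1.05. These levels are computed from base mean and fold change and are approximate where fold changes are drawn towards 0. Both comparisons used the same N2 libraries, so the difference is not a measured difference in N2.

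Most transcripts moved little. The median change was 0.05 on the log2 scale, and the quartiles were -0.39 and 0.52. A change of 2 or more was found for 241 transcripts (3.25%) and a change of -2 or less for 110 (1.48%), while 852 (11.5%) had a change of 1 or more and 572 (7.7%) one of -1 or less. These counts depend on how a transcript entered. Of the 7425, 515 reached the base mean of 50 only in the double-mutant table and 521 only in the met-2 table. Entry through 1 table favours a change in its direction, and 515 of the 515 had a change above 0, against 3 of the 521. Among the 6389 present at that level in both tables, 65 had a change of 2 or more (1.02% of genes) and 44 one of -2 or less (0.692%). The base mean ratio pointed the same way for all 65 and for all 44. It was at least 2-fold for 65 of 65 of the former but for 17 of 44 of the latter, since N2 keeps the base mean of a transcript above 0 even when the double mutant has none. Just inside the limit lay clec-8, with a base mean of 50.1 in the met-2 comparison and a change of -0.44. Just outside it lay NM_066350, which fell short of 50 by less than 0.01 in that comparison and had a change of -2.70.

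**Figure D1:**
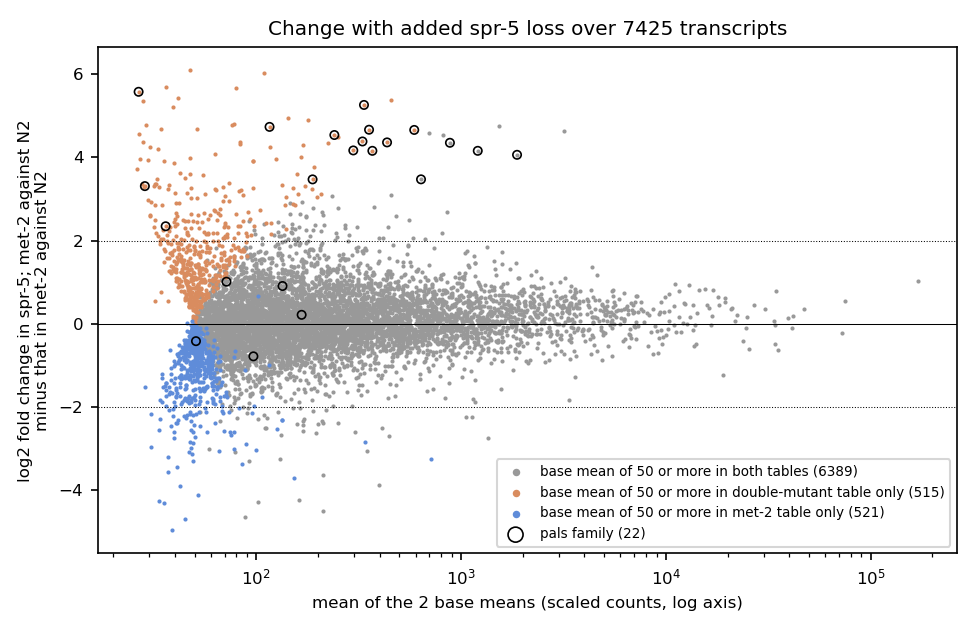
Change with added spr-5 loss (log2, vertical axis) against the mean of the base means in the double-mutant and met-2 comparisons (log axis) for 7425 transcripts, coloured by the table in which they reached a base mean of 50. Most points lie between the dotted lines at 2 and -2, and 17 of the 22 circled pals genes lie above 2.

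Of the 12 largest positive changes among genes present at the level in both tables, 5 belonged to genes of the intracellular pathogen response, namely 4 pals genes and eol-1. The response is a set of genes that C. elegans switches on after infection of the intestine by microsporidia or the Orsay virus, and it includes many members of the pals family, components of a cullin-RING ubiquitin ligase and many genes without a known function. Among pals genes, pals-22 is known as a repressor and pals-25 as an activator of the response. The family is large and includes close paralogs, so values of single members are uncertain where reads fit more than 1 of them. Of 37 pals genes in the tables, 22 were included, of which 8 reached a base mean of 50 in both comparisons, 13 only in that of the double mutant and 1 only in that of met-2. Of the 8, 5 had a change of 1 or more and 0 had one of -1 or less, beside 7.5% and 5.05% of the 6359 genes so placed. With no minimum on the base mean, 34 pals genes had a fold change in both tables, with a median change of 3.47, and 26 of the 34 had a change of 1 or more (7.89% of all 26036 genes). The sum of the base means of these 34 genes was 15863 in the authors' deposited double-mutant table, against 1426 with met-2 and 1332 with spr-5 alone.

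The most abundant pals transcript was pals-14 (NM_060901), with base means of 3562 in the double-mutant comparison, 190 in the met-2 comparison and 134 in the spr-5 comparison of the authors' deposited tables. Its log2 fold change against N2 was 4.88 (SE 1.04, authors' adjusted p 0.000957) in the double mutant, 0.82 (SE 0.80) in met-2 and 0.11 in spr-5, from the authors' deposited tables, a change of 4.06 (SE 1.31). Its base mean ratio was 19.3. The level was far higher in the double-mutant comparison than in both others. For pals-26 (NM_065481) the authors' deposited tables gave base means of 1671, 93.1 and 107 in the same order, and the change was 4.35 (SE 1.22). For pals-33 (NM_071625) they were 2277, 135 and 105 in the authors' deposited tables, with a change of 4.15 (SE 1.38). pals-32, the next member by level, had a change of 3.47, but its log2 fold change of 3.41 in the double mutant did not pass the authors' adjusted p (0.109) in their deposited table.

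The members that reached the level in the double-mutant comparison alone included pals-9, with a change of 5.26 (SE 1.45), and pals-28, with one of 4.73 (SE 1.34). Their base means in the met-2 comparison of the authors' deposited tables were 18.2 and 9.50, against 653 and 223 in the double mutant. pals-3 had a change of 5.57, but its base mean was 0.70 in the met-2 comparison and 0 in the spr-5 comparison of the authors' deposited tables, which leaves its level in those mutants close to no reads. In pals-5, whose promoter is widely used as a reporter of the response, the change was 4.66. Of all pals genes included, 13 passed the authors' adjusted p of 0.05 as higher in the double mutant and 0 passed it in met-2, from the authors' deposited tables, beside 0.917% and 0.122% of the included transcripts so called. Among the 13, pals-14, pals-26 and pals-33 had reached the level in both comparisons. The others entered through the double-mutant comparison alone, which favours such a call. The regulators had smaller changes. pals-22 had a change of 0.91 and pals-25 one of 0.22, with base means of 170.5 and 163 for pals-25 in the double-mutant and met-2 comparisons of the authors' deposited tables. pals-24 was at 1.01, pals-18 at -0.41 and pals-20 at -0.78.

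**Figure D2:**
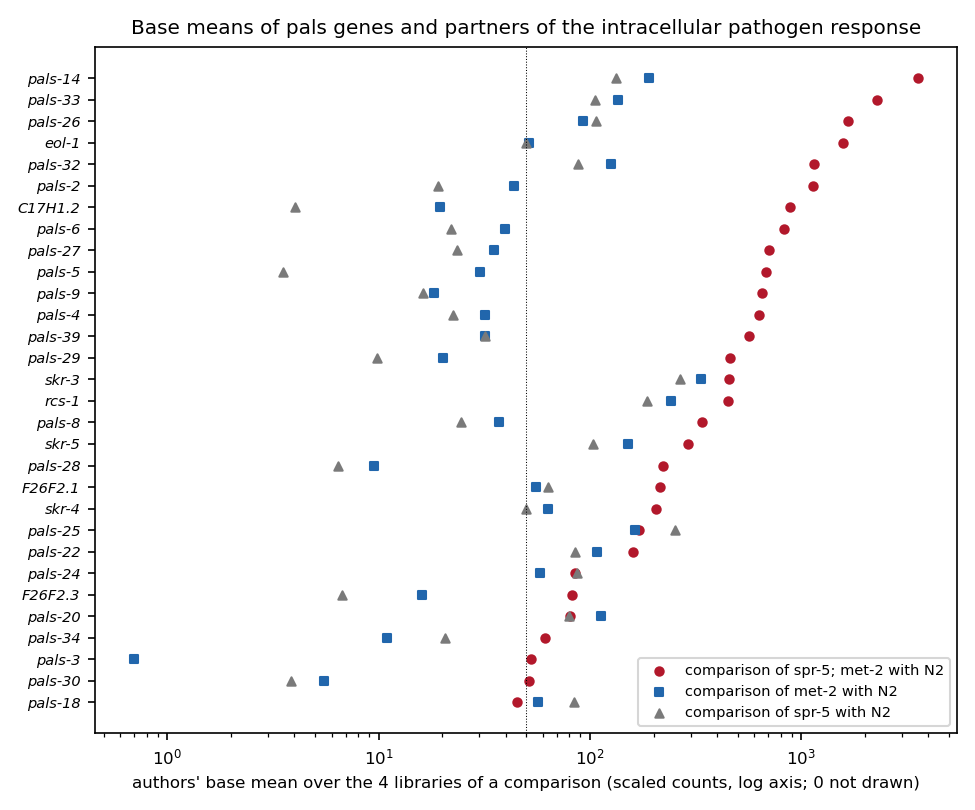
Base means (scaled counts, log axis) of 22 pals genes and 8 partner genes of the intracellular pathogen response in the 3 comparisons with N2, each over 4 libraries; the dotted line marks 50. For pals-14 the double-mutant value is 3562 and the other values are 190 and 134, whereas for pals-25 all 3 lie between 163 and 253.

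Outside the family, partners of the response had the same direction. Of 12 listed partners in the tables, 8 were included, 6 of them at the level in both comparisons. Of the 6, 5 had a change of 1 or more, beside 7.5% of genes so placed. eol-1 (NM_001129551), a relative of the RNA decapping enzyme DXO, had base means of 1577, 51.7 and 49.98 in the authors' deposited tables (double mutant, met-2 and spr-5 in this order). Its log2 fold change was 6.39 (SE 1.04) in the double mutant, 1.85 (SE 0.83) in met-2 and 1.58 in spr-5 in those deposited tables of the authors, a change of 4.55 (SE 1.34). C17H1.2, of unknown function, entered through the double-mutant comparison alone, with base means of 888, 19.5 and 4.01 in the authors' deposited tables in that order and a change of 5.38. The ubiquitin ligase components followed with smaller changes. They were 1.96 for skr-4 and 1.25 for skr-5, both Skp1-related adaptors, 1.25 for rcs-1, a RING protein that works with the cullin CUL-6, and 0.74 for skr-3. No adjusted p of these 4 passed in the double mutant, from the authors' deposited table. The list of partners had been put together with earlier results of these larvae known, and it is not independent evidence of a direction.

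The highest change among transcripts present at the level in both tables was that of B0507.6 (NM_001356709), at 4.76 (SE 1.33). Its base mean was 2964 in the double-mutant comparison, 93.6 with met-2 and 135 with spr-5 alone, from the authors' deposited tables. It was followed by ddn-1 (NM_072856) with 4.64 (SE 1.37) and B0507.8 with 4.59 (SE 1.23). The base mean of ddn-1 was 6217, the highest of the 12 largest positive changes, against 175 in the met-2 comparison of the authors' deposited tables. In B0507.8 the authors' log2 fold changes were already 2.07 in met-2 and 1.73 in spr-5 in their deposited tables, neither past the adjusted p. The remaining positive changes named by rule were those of F58F9.4 at 3.1, math-28, which encodes a MATH-domain protein, at 3.08, Y46G5A.20 at 2.93 and C16C8.5 at 2.90. These 4 did not pass the authors' adjusted p in the authors' deposited double-mutant table. C16C8.5 was below N2 in met-2 (-1.49) and in spr-5 (-1.88) and above it in the double mutant (1.41), from the authors' deposited tables.

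In transcripts seen in the double-mutant comparison alone, the largest changes were those of B0507.9 at 6.09, F15H10.10 at 6.02, F28C10.1 at 5.69, Y39H10B.3 at 5.67, pals-3 at 5.57 and F42C5.3 at 5.43. Apart from pals-3, given above, their base means ran from 70.9 to 215 in the double-mutant comparison and from 1.40 to 4.06 in the met-2 comparison of the authors' deposited tables. All 6 passed the authors' adjusted p as higher in the double mutant, from the authors' deposited table. With so few reads in met-2 the size of the change is set mainly by the double mutant.

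**Figure D3:**
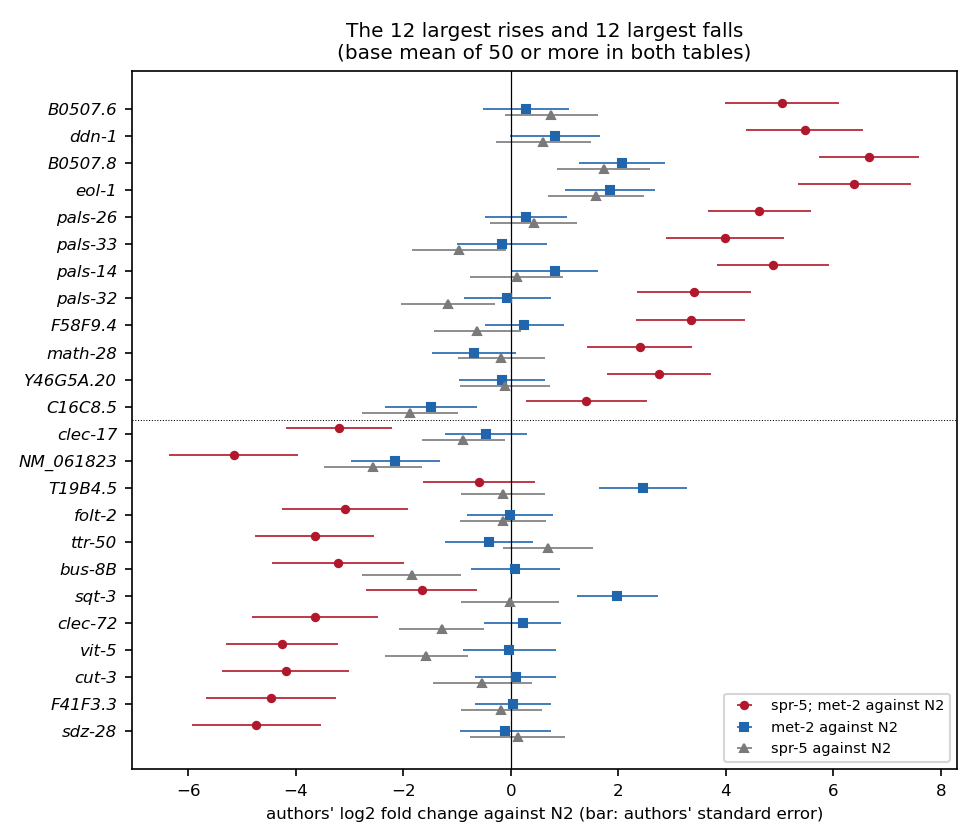
Authors' log2 fold changes against N2 (horizontal axis, bars are the authors' standard errors) in the double mutant (circles), met-2 (squares) and spr-5 (triangles) for the 12 largest positive and 12 largest negative changes among genes with a base mean of 50 or more in both tables. For the positive changes the double mutant lies apart from both other mutants, as for B0507.6 at 5.04 against 0.28 in met-2, and sqt-3 and T19B4.5 are the negative changes in which met-2 lies at 1.98 and 2.46.

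Genes with a change of 2 or more often lay side by side. Of 204 protein-coding genes with such a change, 29 had a neighbour in the gene order of assembly WBcel235 that also had one, which is 24.4% of those with an included neighbour. Over all 3955 protein-coding genes with an included neighbour, 3.51% had a neighbour with such a change. They formed 12 runs, the longest being pals-5, pals-9, pals-6 and pals-14. Runs of 3 were ddn-1, B0507.8 and B0507.9, then pals-3, pals-4 and pals-8, and droe-8, ZC196.5 and ZC196.4. Of 45 genes with a change of -2 or less and an included neighbour, 0 had a neighbour that also reached -2, beside 1.29% over all genes with an included neighbour. Of the 241 transcripts with a change of 2 or more, 176 entered through the double-mutant table alone, which favours a positive change. The shares of neighbours include such genes and were not computed over genes at the level in both tables alone. Neighbours can share reads where they overlap, and the strand setting of the counting is not given in the sources used here.

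F-box genes, whose products choose substrates for ubiquitin ligases, had changes on both sides. Of 294 in the tables, 31 were included, 16 of them through the double-mutant comparison alone. Of the 10 present at the level in both, 5 had a change of 1 or more and 0 had one of -1 or less, beside 7.5% and 5.05% of genes so placed. The largest changes were those of fbxa-86 at 5.34, fbxa-75 at 4.91 and fbxa-7 at 4.37, and all 3 passed the authors' adjusted p as higher in the authors' deposited double-mutant table. In fbxa-75 the base mean was 345 against 10.8 in met-2 and 4.95 in spr-5, from the authors' deposited tables. With no minimum on the base mean, the median change of 255 F-box genes was -0.29, with 44 at 1 or more and 45 at -1 or less, beside 7.89% and 10.5% of all genes.

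Lists of genes with known roles in the germ line differed among themselves. Among regulators of translation in the germ line, 11 of 22 genes in the tables were included, 9 of them at the level in both comparisons. Of these 9, 6 had a change of 1 or more and 2 had one of -1 or less, beside 7.5% and 5.05% of genes so placed. With no minimum, 9 of 20 had a change of 1 or more and 4 had one of -1 or less, beside 7.89% and 10.5% of all genes, and the median was 0.60. gld-1, which encodes an RNA-binding repressor needed for the progression of meiosis, had base means of 443, 99.4 and 62.6 in the authors' deposited tables (double mutant, met-2 and spr-5 in this order), and a change of 2.37. oma-2, which encodes a zinc-finger protein of maturing oocytes, had 239, 53.0 and 70.7 in the authors' deposited tables, and its change was 2.64 (SE 1.36). gld-2, a cytoplasmic poly(A) polymerase, had a change of 2.86 (SE 1.32) and entered through the double-mutant comparison alone, as did puf-5, a Pumilio-type repressor, at 2.43 (SE 1.36). mex-5, a zinc-finger gene of embryonic polarity, was at 2.06, the Pumilio-type genes puf-8 and puf-11 were at 1.54 and 1.43, and daz-1, a homolog of the human DAZ family, was at 1.41. The relatives puf-3 and oma-1 went the other way, at -2.08 and -1.09. None of the 11 passed the authors' adjusted p in the double mutant, from the authors' deposited table.

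In the list of Argonautes and other small RNA factors, 15 of 17 included genes reached the level in both comparisons, 7 of the 15 had a change of 1 or more and 0 had one of -1 or less, beside 7.5% and 5.05% of genes so placed. prg-1, the Piwi protein that binds piRNAs, had base means of 2398 in the double-mutant comparison, 757 with met-2 and 731 with spr-5 alone, from the authors' deposited tables, and a change of 1.73. It was the only gene of this list past the authors' adjusted p in the authors' deposited double-mutant table. ekl-1, a Tudor-domain partner of germline small RNA synthesis, had a change of 1.86 (SE 1.27). The Argonaute genes wago-4, ppw-2, wago-1 and hrde-1, the last of which acts in the nucleus, had changes of 1.70, 1.47, 1.05 and 1.03, and mut-7, an exonuclease gene of the mutator complex, had 1.35. The Argonaute genes csr-1 and ppw-1 entered through the double-mutant comparison alone, with changes of 1.86 and 2.59. The polymerase gene rrf-3 and the Argonaute gene ergo-1 were near 0, at -0.14 and -0.15. ego-1, the RNA-dependent RNA polymerase of the germ line, was an exception in its order of groups, with a base mean of 263 in the spr-5 comparison against 82.0 in the double mutant and 67.7 in met-2, from the authors' deposited tables.

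Meiotic chromosome genes were mostly near the limit of inclusion. Of 27 in the tables, 8 were included, and 6 of the 8 entered through the double-mutant comparison alone. These 6 were the axis genes htp-1, htp-2 and htp-3, the cohesin gene coh-3, the synaptonemal complex gene syp-3 and the polo-like kinase gene plk-2. The changes of the named ones were 3.15 (SE 1.42) for htp-1, 2.89 (SE 1.25) for htp-3 and 2.36 (SE 1.26) for coh-3. In htp-3 the base mean was 258 in the double-mutant comparison, 43.1 with met-2 and 37.8 with spr-5 alone, from the authors' deposited tables. The remaining 2, present at the level in both, hardly differed, with him-17 at 0.34 and syp-1 at 0.22. With no minimum, 22 meiotic genes had a median change of 0.56, and 8 of the 22 had a change of 1 or more and 1 had one of -1 or less, beside 7.89% and 10.5% of all genes. syp-1, a component of the synaptonemal complex, was high in both groups, with base means of 442 in the double-mutant and 519 in the met-2 comparison and 33.3 in that of spr-5, from the authors' deposited tables.

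Germ granule genes gave 4 included members of 13, each at the level in both comparisons. glh-1, a Vasa-like helicase of P granules, had base means of 607, 273 and 162 in the authors' deposited tables and a change of 1.28 (SE 1.21). glh-2 followed at 0.90 and the general RNA granule genes cgh-1 and car-1 at 0.30 and 0.12, all within their standard error. In the list of oogenesis and eggshell genes, egg-4 and egg-5, which encode regulators of the egg-to-embryo transition, had changes of 2.95 (SE 1.32) and 2.17 (SE 1.37), and both entered through the double-mutant comparison alone. cbd-1, an eggshell component, had 1.51 (SE 1.18), cpg-1 had -0.52 and cpg-2 had -0.98. The median of the 4 genes of this list present at the level in both comparisons was 0.05. With no minimum 3 of 12 had a change of 1 or more and 3 had one of -1 or less, beside 7.89% and 10.5% of all genes. Of 24 spermatogenesis genes in the tables, the transcription factor gene spe-44 alone was included, at 2.86 (SE 1.46) through the double-mutant comparison. With no minimum, 8 of 18 spermatogenesis genes had a change above 0, and the median was -0.02, beside 39.8% and -0.14 over all genes. The ribosomal protein gene rpl-11.1, a paralog of rpl-11.2, had a base mean of 605 in the double-mutant comparison against 143 in that of met-2, and of 495 in that of spr-5, from the authors' deposited tables, and a change of 2.80 (SE 1.18).

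**Figure D4:**
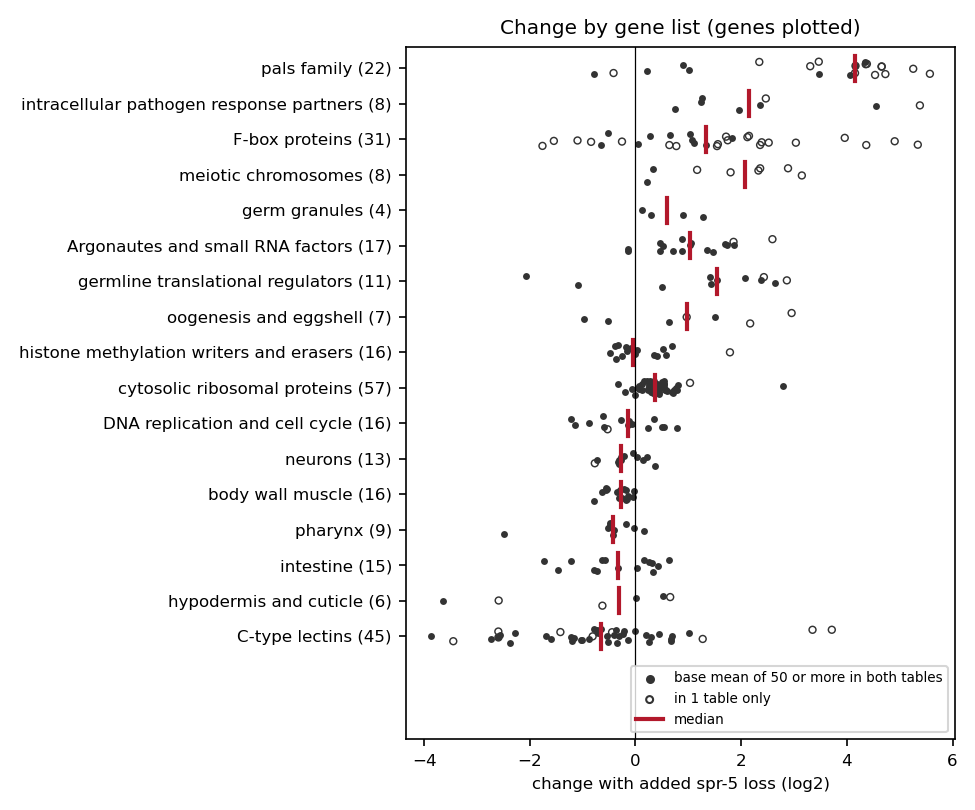
Change with added spr-5 loss (log2, horizontal axis) of the included genes of 17 lists, 1 point per gene, filled where the base mean was 50 or more in both tables and open where it was so in 1 table only; red bars are medians. The medians are 4.15 for the pals family, 1.54 for germline translational regulators and 1.03 for Argonautes and small RNA factors, against 0.05 over all included genes. The first rests largely on the 13 pals genes that entered through the double-mutant table alone, and it is 2.24 over the 8 pals genes in both tables.

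The authors' own calls were set beside the change, which does not by itself tell whether a transcript was already raised in met-2. The authors' deposited double-mutant table called 78 transcripts higher (0.636%) and 9 lower (0.0733%) at an adjusted p under 0.05, and 68 of the 78 were included here. Of the 68, 25 reached the level in both comparisons. The others entered through the double-mutant comparison alone, which favours a positive change. Among the 68, 53 had a change of 2 or more, beside 3.25% of all included transcripts, 12 had one between 1 and 2, and 3 had one under 1. This sorting rests on the same fold changes that gave the calls and is a description. The 3 with a change under 1 were lotr-1, whose product is a LOTUS and Tudor domain protein of germ granules, at 0.98, trf-2 at 0.61, and syp-1 at 0.22. They were singled out after their values were seen. For trf-2 the log2 fold changes in the authors' deposited tables were 6.39 with both genes lost and 5.78 with met-2 lost. Its base means pointed the other way, at 880 in the double-mutant and 1003 in the met-2 comparison of the authors' deposited tables. For lotr-1 the log2 fold changes were 3.69 with both genes lost and 2.71 with met-2 lost in the authors' deposited tables. Those between 1 and 2 included prg-1, nxf-2, a nuclear RNA export factor gene, at 1.83, enu-3.3 at 1.76 and F15D4.5 at 1.74. The median log2 fold change of the 68 in met-2 was 1.22, from the authors' deposited table.

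All 9 transcripts that the authors' deposited table of met-2 called higher (0.0647%) were included here, and their median change was 1.2. Of these, 5 had a change of 1 or more, 3 one between -1 and 1, and 1 one of -1 or less. ZK892.6 had the highest, with 2.03. At the other end was Y38H6C.8, whose log2 fold change was 3.56 with met-2 lost and 0.56 with both genes lost, with base means of 147 and 8.19, from the authors' deposited tables. That transcript was high with the loss of met-2 alone and low with both losses. The authors' deposited table of spr-5 called 3 transcripts higher (0.0101%), and 0 of them were included. dpy-14, a collagen gene, was at 3.56 with met-2 lost and 2.77 with both genes lost in the authors' deposited tables, a change of -0.79.

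**Figure D5:**
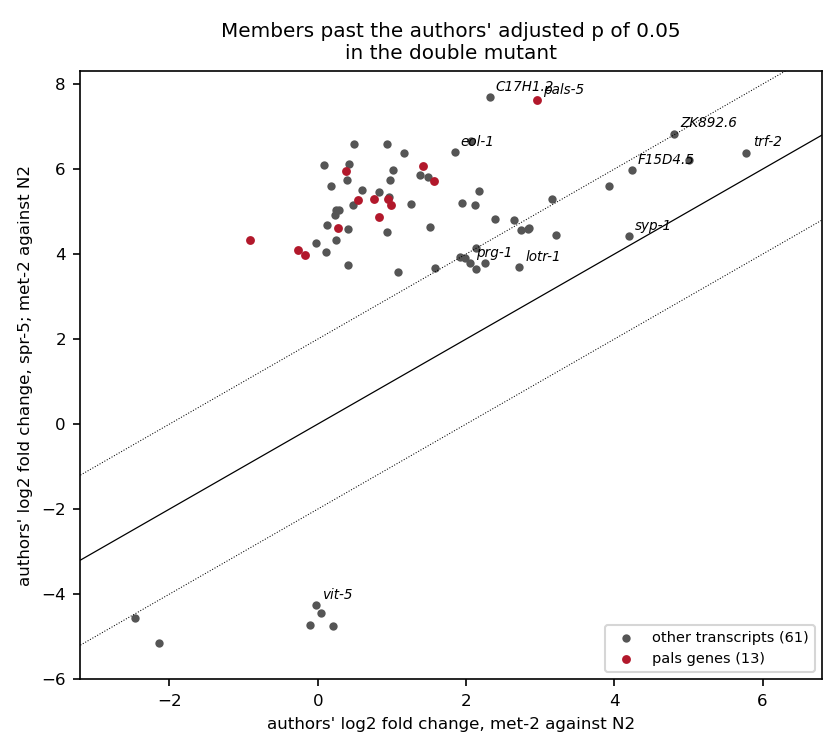
Authors' log2 fold change in the double mutant (vertical axis) against that in met-2 (horizontal axis), both against N2, for the 74 included transcripts past the authors' adjusted p of 0.05 in the double mutant; the solid line marks equal values and the dotted lines a change of 2 and -2. The 13 pals genes lie above the upper dotted line, and syp-1, trf-2 and lotr-1 lie within 1 of the solid line.

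With no minimum on the base mean, 10.5% of all 26036 genes had a change of -1 or less and 7.89% one of 1 or more. At the larger step, 2.00% had a change of 2 or more and 1.57% one of -2 or less. Among the included transcripts, negative changes were fewer at both steps. The largest among genes present at the level in both tables was that of sdz-28 (NM_061791), at -4.63 (SE 1.46), with base means of 58.1 in the double-mutant comparison, 117 with met-2 and 140 with spr-5 alone, from the authors' deposited tables. F41F3.3 had -4.49 (SE 1.40). cut-3, a cuticlin gene, had -4.27 (SE 1.40), and vit-5, which encodes a yolk protein of adult hermaphrodites, had -4.23 (SE 1.35). In vit-5 the authors' log2 fold change was -4.25 (SE 1.04, authors' adjusted p 0.00947) in the double mutant, -0.03 (SE 0.86) in met-2 and -1.57 in spr-5, per their deposited tables. bus-8B, from a locus for a glycosyltransferase of the surface, was at -3.30 (SE 1.47), ttr-50, a transthyretin-related gene, at -3.24 (SE 1.37), and folt-2, a folate transporter gene, at -3.07 (SE 1.42). NM_061823, with no symbol in the table used, was at -3.0 (SE 1.45), but its base mean ratio was 1.16, and its log2 fold change was already -2.15 in met-2, from the authors' deposited table. The base mean ratios of the 12 genes named by rule ran from 1.16 up to 2.37, for cut-3, apart from 5.55 for sqt-3 and 7.66 for T19B4.5.

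Of the 9 transcripts called lower in the authors' deposited double-mutant table, 6 were included (0.0809% of included transcripts). All 6 had a change of -2 or less, beside 1.48% of all included transcripts. The calls and the change share the fold change of the double mutant, so this is a description. The base mean ratio, with met-2 higher, was 1.08 for srd-19 and 1.16 for NM_061823, and ran from 1.95 to 2.28 for the others. The lowest change of all was that of hmit-1.1, a proton-coupled myo-inositol transporter gene, at -4.96 (SE 1.55). Its base means were 23.3 in the double-mutant and 54.5 in the met-2 comparison of the authors' deposited tables, and it entered through met-2 alone. Others that entered through met-2 alone, none of them called, were mtre-1 at -4.70, H03E18.1 at -4.31, H42K12.3 at -4.26 and hlh-14, a basic helix-loop-helix factor of neural lineages, at -4.11.

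For some negative changes the base mean was higher in the met-2 comparison than in both others. sqt-3 (NM_001269483), a cuticle collagen gene, had a base mean of 362 in the met-2 comparison, 63.4 in that of the double mutant and 113 in that of spr-5, from the authors' deposited tables. Its log2 fold change was 1.98 (SE 0.75) with met-2 lost and -1.66 (SE 1.04) with both genes lost, neither past the adjusted p in the authors' deposited tables, and the change was -3.64 (SE 1.28). T19B4.5 had a base mean of 615 in met-2 and 78.1 and 102 in the double mutant and spr-5, from the authors' deposited tables, and a change of -3.04 (SE 1.32). wrt-10, a hedgehog-related gene, had 93.0, 21.8 and 35.2 in the same order in the authors' deposited tables and a change of -2.59 (SE 1.47). ZC581.10 had 83.2, 1.63 and 3.80 there, from the authors' deposited tables, and a change of -3.90 (SE 1.48). For dpy-17, another cuticle collagen gene, the fold changes and the base means pointed opposite ways. Its change was 0.66 (SE 1.32), while its base mean was 157 in the met-2 comparison and 46.8 with both genes lost in the authors' deposited tables, a base mean ratio of 3.26 with met-2 higher, and the log2 ratio of the implied levels, double mutant over met-2, was -1.52. Of the 6 included genes of hypodermis and cuticle, 3 entered through met-2 alone.

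C-type lectins, a large family of secreted proteins many of which are made in the intestine, tended to be lower. Of 234 in the tables, 36 reached the level in both comparisons, and of these 13 had a change of -1 or less and 1 had one of 1 or more, beside 5.05% and 7.5% of genes so placed. With no minimum, 66 of 209 had a change of -1 or less, beside 10.5% of all genes. clec-72 had base means of 246, 545 and 350 in the authors' deposited tables (double mutant, met-2 and spr-5 in this order), and a change of -3.86 (SE 1.37). clec-17 had 1021, 1688 and 1562 there, from the authors' deposited tables, and a change of -2.73 (SE 1.24). clec-48 entered through met-2 alone, at -3.45 (SE 1.52). clec-226 went the other way, at 3.72 (SE 1.42), through the double-mutant comparison alone. None of the included lectins passed the authors' adjusted p in either of their deposited tables of the double mutant or met-2.

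The marker lists of body wall muscle, pharynx, intestine and neurons, 4 tissues that make up much of the larva, had medians below 0. All 16 included body wall muscle genes, of 21 in the tables, had a change below 0, from -0.78 for unc-22, which encodes the giant sarcomere protein twitchin, to -0.03, with a median of -0.28. Of 9 pharynx genes 8 were below 0, with a median of -0.43, and phat-4, a toxin-related gene of the pharyngeal gland, was lowest at -2.50 (SE 1.47). myo-2, the pharyngeal myosin gene, had a base mean of 30364 in the double-mutant and 37846 in the met-2 comparison of the authors' deposited tables, and a change of -0.49 (SE 1.14). Of 15 intestine genes 8 were below 0, with a median of -0.34, and the protease and lysozyme genes were lowest, with cpr-1 at -1.73 (SE 1.36), lys-1 at -1.47 (SE 1.29) and asp-1 at -1.23 (SE 1.26). elt-2, the GATA factor that defines the intestine, was at 0.31. Of 13 neuron genes 9 were below 0, with a median of -0.27. Over all included genes, the share above 0 was 53.4%, and of the 4 lists the intestine, with 7 of 15 above 0, lay nearest to it. With no minimum on the base mean, the medians were -0.26 for body wall muscle, -0.43 for the pharynx, -0.25 for the intestine and -0.22 for neurons. The median over all genes was then -0.14. The summed base means of the listed genes were 103460 in the double mutant and 118273 in met-2 for body wall muscle, 80337 and 97730 for the pharynx, 20555 and 32469 for the intestine and 25020 and 27085 for neurons, from the authors' deposited tables. No adjusted p of a gene of these tissues passed in the authors' deposited tables of the double mutant or met-2. Apart from phat-4, cpr-1 and lys-1, the changes in these 4 tissues lay within the standard error of each gene. The part of these tissues in the changes of other groups was not tested. The list of hypodermis and cuticle had a median of -0.31 over 6 included genes and of 0.01 over the 3 at the level in both comparisons.

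Cytosolic ribosomal protein genes lay on the other side, with 53 of 57 included genes above 0, beside 53.4% of all included genes. Their median was 0.36, and 0.19 by log2 base mean ratios. Apart from rpl-11.1, their largest changes were those of rpl-3 at 1.03 (SE 1.35) and rpl-36A at 0.80 (SE 1.15), both within their standard error. The transcript that stood for rpl-3 (NR_002368) is a non-coding one, so its change is not that of the protein-coding messenger. It entered through the double-mutant comparison alone, with base means of 58.7 there and 36.9 with met-2, from the authors' deposited tables. DNA replication and cell cycle genes had a median of -0.14 over 16 genes, with mcm-3, a subunit of the replicative helicase, at -1.23 (SE 1.22) and pcn-1, the sliding clamp PCNA, at -1.14 (SE 1.24).

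Among writers and erasers of histone methylation, 15 of 16 included genes had a change between -1 and 1, and the median was -0.05. Over all included genes, 11.5% had a change of 1 or more and 7.7% one of -1 or less. The exception among the 16 was set-2, a methyltransferase for lysine 4 of histone H3, at 1.79 (SE 1.43). It entered through the double-mutant comparison alone with a base mean of 65.1 against 22.8 in met-2, from the authors' deposited tables. The spr-5 transcript itself (NM_060965) had base means of 717, 516 and 682 in the authors' deposited tables (double mutant, met-2 and spr-5 in this order), and a change of 0.70 (SE 1.17). The met-2 transcript (NM_066447) had a change of -0.02 (SE 1.19). Neither level checks the labels, since a mutant allele can still be transcribed. The DREAM and synMuv repressors had a median of -0.02 over 13 genes, with lin-15B at 0.70 and lin-35, the retinoblastoma homolog, at 0.67.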

How the data were processed

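RNA sequencing of 8 libraries in 4 groups was reported by the authors as 3 tables, 1 for each mutant against N2. Per the submitters' processing notes, the tools were FastQC, Trimmomatic, featureCounts and DESeq2 (2.11.40.2) and the build was ce10. The aligner, the annotation release, the strand setting and the treatment of reads shared by isoforms are not given in the sources used here. Of protein-coding genes with 1 transcript in the tables, some 38.4% reached a base mean of 50, against 17.7% of those with 2 or more, so genes with several isoforms are under-represented. Base means are a signal in the authors' scaled counts, averaged over the 4 libraries of a comparison. Fold changes with their standard errors were deposited on the log2 scale. The Wald score that the authors deposited is the quotient of these. Each p-value, raw and adjusted, is also the authors' own. The number of per-sample columns left unused was 0.

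Fold changes were subtracted in Python 3.11.15 with pandas 2.3.3 and drawn with matplotlib 3.10.9, after a check on simulated tables. No test was fitted, since values of single libraries were not used here, and calls rest on the authors' DESeq2 adjusted p-values. Symbols came from a RefSeq table of assembly WBcel235 and were found for 6529 of the 7425 transcripts. It was used for names and gene order. For lists, each gene was represented by the transcript with the largest sum of base means in the double-mutant and met-2 tables. Named are the 12 largest changes in each direction among genes with a base mean of 50 in both tables, the 6 largest in each direction among those with it in 1 table, up to 3 members of each of 33 lists with the largest absolute change, and spr-5 and met-2. Further list members and called transcripts were named after their values were seen. The transcripts, lists and rules were chosen with earlier results of these data known. Alternatives were other minimums, centring, implied group levels, base mean ratios and stricter or recomputed adjusted p-values.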

Additional observations from a re-analysis of the deposited data

How the results depend on the processing

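No paired analysis was possible because the columns used here carry comparisons and no single libraries, and leaving out a library in turn was not run for the same reason. The ratio of base means and the lists without a minimum were alternatives chosen after seeing the data.

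With a base mean of at least 10, 471 transcripts had a change of 2 or more, 393 one of -2 or less, 1673 one of 1 or more and 1755 one of -1 or less. With at least 100 these were 152, 57, 552 and 285, and with at least 50 in both comparisons they were 65, 44, 477 and 321, since fewer or more transcripts enter. Base mean ratios gave 37 at -2 or less, 478 at 1 or more and 170 at -1 or less, as N2 draws them towards 1, and implied group levels gave 182 at -2 or less. An adjusted p under 0.01 left 52 of the authors' 87 calls in the double mutant, by the stricter threshold itself, and the adjustment recomputed over all p-values left 64, with 7 of 9 in met-2 under each.

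No error of a list median is known, and its shift was set against the median standard error of its members, which passes over shifts such as that of oogenesis from 0.97 to 0.05 in both tables. Beyond it moved the medians of meiotic chromosomes (0.28 in both tables, 0.56 with no minimum), the pals family (2.24 in both tables), F-box proteins (-0.29 with no minimum), and hypodermis and cuticle (-2.36 by implied levels, -1.88 by base mean ratios). The cause was not tested. Of 125 changes named by rule, 124 kept their sign under base mean ratios and 124 under implied levels, with dpy-17 the exception in both. Under centring 125 kept it. Among genes named after their values were seen, syp-1 and trf-2 also changed sign under base mean ratios and implied levels. Their log2 base mean ratios were -0.19 and -0.15, and their log2 ratios of implied levels were -0.22 and -0.18. The standard error of a change had a median of 1.27, which limits what can be told apart.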

Other observations

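Several families outside the groups above held single genes with large changes. Among nuclear hormone receptors, 59 of 257 genes in the tables reached a base mean of 50 in both comparisons, and their median change was 0.10, but nhr-258 was at 3.22 (SE 1.42) and nhr-65 at 2.24 (SE 1.51), both through the double-mutant comparison alone. nhr-2 was at -2.56 (SE 1.52) through met-2 alone, with base means of 128 in the met-2, 10.9 in the double-mutant and 39.8 in the spr-5 comparison of the authors' deposited tables. Of the neuropeptide genes, 61 of 98 reached the level in both comparisons, with a median of 0.10, and the highest were nlp-31 and nlp-29, antimicrobial peptide genes of the epidermis, at 1.83 (SE 1.53) and 1.47 (SE 1.46). cyp-13A5, a cytochrome P450 gene, was at 2.44 (SE 1.31) and cyp-13B1 at -3.08 (SE 1.42). Chaperone genes had a median of 0.58 over 8 genes, all present in both comparisons, with hsp-110 at 1.09 (SE 1.21). Proteasome subunits had a median of 0.18, Hox and tissue fate regulators one of 0.13, histones -0.07, and the hedgehog-related and patched-related genes -0.07. The other families had medians of -0.53 for cuticle collagens of the col family, -0.05 for cytochrome P450, UGT and GST enzymes, 0.27 for 25 chemoreceptors, of which 9 entered through the double-mutant comparison alone, and 0.55 for 30 long intergenic non-coding RNAs. With no minimum on the base mean the medians of these last 2 families were -0.34 and -0.22, that of nuclear hormone receptors was -0.14 and that of Hox and tissue fate regulators was -0.01, beside -0.14 over all genes. The included sdz genes were sdz-28 and sdz-24, at -4.63 and -1.73, and the early zygotic list added tbx-11 at -1.82.

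For some transcripts the authors' fold change and base mean did not tell the same story. N2 is part of all 3 comparisons, so its level is at most 2 times the smallest base mean of a transcript, apart from the scale of the tables, and the rest of a larger base mean must come from the mutant. Computed this way, the level in met-2 exceeded N2 by more than the authors' log2 fold change, by at least 2 on the log2 scale, for 7 of 7425 transcripts, and the same held in the double mutant for 5. For C36B7.4 the base mean was 1411 in the met-2 comparison, 8.27 in the double-mutant and 11.1 in the spr-5 comparison of the authors' deposited tables. Its level in met-2 was by this bound at least 165-fold that in N2, while the authors' deposited log2 fold change was 1.42. For F59B10.2 the base means were 7142, 72.6 and 60.3 in the authors' deposited tables and the bound was 125-fold, against a deposited log2 fold change of 1.51. The others in met-2 were srj-13, Y62H9A.1, wrt-2, lpr-3 and ZC581.10. In the double mutant they were nhr-288, K12H6.8, tbx-31, srg-59 and F19B10.14, with base means from 57.4 to 129 in the authors' deposited table. These transcripts were chosen after their values were seen. How the reads were spread over the 2 libraries of a group was not analysed here.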
